A study of Mus musculus with 10 samples.

Results

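The 9 genes described here are 7 mouse selenoproteins (Sepp1, Gpx1, Gpx3, Gpx4, Sepw1, Dio1 and Txnrd2), the selenium-binding protein gene Selenbp1, and Ccdc152, which lies beside Sepp1 on the opposite strand. They were found by symbol, under 13 transcript rows, among the 24016 symbols of the deposited transcription table. The genes were chosen on their measured transcription levels, above all on the difference of Sepp1 and Ccdc152 between the culture media in these same libraries, so their differences between media are given as a description, and nothing is read from the calls that the fit across all genes makes on them. Of the 9 genes, 8 passed the filter on low values (at least 0.5 RPKM in at least 2 of the 4 libraries) and Dio1 did not.

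The material was organoids of mouse duodenum, the first stretch of the small intestine, grown in Matrigel in either of 2 media. ENRI medium held EGF, Noggin and R-spondin together with IWP-2, a blocker of Wnt secretion, and the labels name its cells enterocytes. WENRC medium held the same 3 factors, the ligand Wnt3A and, in place of IWP-2, CHIR-99021, a GSK3 inhibitor that activates Wnt signalling, and the labels name its cells intestinal stem cells. Genotype, strain, age and the time in each medium are not given in the sources used here, and no allele or transgene is named. RNA being made in isolated nuclei was labelled and sequenced (global run-on, GRO-seq) from 2 libraries of each medium. For the polycomb mark H3K27me3 there was 1 ChIP-seq library of each medium, so comparisons of that mark have no replicate check. Sample titles number the mice 1 and 2 in both media, whereas the deposited columns carry batch numbers 1 and 2 in the authors' header, and "batch" below is that number. The names of the deposited columns also differ between the 2 batches, 1 of which is filed under "duplicates". No label says outright that the libraries of a medium came from separate cultures, so the spread between them may be partly technical.

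Selenoproteins carry selenocysteine, an amino acid inserted at a UGA codon with the help of a stem-loop in the mRNA, a dedicated tRNA and an elongation factor. Sepp1 (now Selenop) encodes selenoprotein P, a secreted protein with many selenocysteines that carries selenium from the liver to other tissues. The glutathione peroxidases reduce peroxides, the thioredoxin reductases keep thioredoxin reduced, and the deiodinases act on thyroid hormone. In the intestine, glutathione peroxidases and selenoprotein P are known as parts of the epithelium's defence against oxidants.

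The promoter windows of the 3 genes on which the results turn are shown first: the neighbours Sepp1 and Ccdc152, which differed between the media, and Gpx3, whose start carried H3K27me3. Each runs from 250 bases before to 50 after an annotated start, 5′ to 3′, and comes from RefSeq on build GRCm38.p6, which is not the mm9 build of the deposited files. Their positions are chr15:3270727-3271026 on the plus strand for Sepp1 (the start farthest downstream of 3), chr15:3303477-3303776 on the minus strand for Ccdc152, and chr11:54902604-54902903 on the plus strand for Gpx3. Capitals mark 4 motifs on either strand: the TATA box searched as TATAAA, a FOXO motif as GTAAACA, an HNF4 motif as CAAAGTCCA, and CCAAT, the letters of a box that reads ATTGG on the other strand. None of these hits overlap in the 3 windows.
Sepp1: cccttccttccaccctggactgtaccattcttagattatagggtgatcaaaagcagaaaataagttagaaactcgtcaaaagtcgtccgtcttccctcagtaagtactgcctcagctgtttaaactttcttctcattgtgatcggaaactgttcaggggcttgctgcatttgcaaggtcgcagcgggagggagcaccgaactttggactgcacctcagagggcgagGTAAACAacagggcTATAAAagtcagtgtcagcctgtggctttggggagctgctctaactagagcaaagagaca
Ccdc152: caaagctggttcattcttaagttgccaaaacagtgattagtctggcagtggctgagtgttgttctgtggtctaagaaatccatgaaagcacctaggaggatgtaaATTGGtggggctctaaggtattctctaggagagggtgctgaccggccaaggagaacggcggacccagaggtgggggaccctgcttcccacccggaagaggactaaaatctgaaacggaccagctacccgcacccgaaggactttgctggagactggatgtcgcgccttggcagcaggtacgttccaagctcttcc
Gpx3: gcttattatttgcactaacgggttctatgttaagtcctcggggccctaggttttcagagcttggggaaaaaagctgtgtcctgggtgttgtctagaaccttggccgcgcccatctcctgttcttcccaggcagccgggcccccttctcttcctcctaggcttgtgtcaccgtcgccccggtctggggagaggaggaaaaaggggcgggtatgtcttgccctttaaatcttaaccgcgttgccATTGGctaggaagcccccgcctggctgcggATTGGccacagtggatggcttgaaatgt

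The Sepp1 window held GTAAACA with its first base at position -24 from that start and TATAAA at position -10. In the Ccdc152 window, 1 CCAAT box lay at position -145 on the other strand, and the Gpx3 window held 2 on the other strand, at positions -8 and 23. All 9 genes matched the promoter table, with 14 windows. Of the 32851 mouse windows of 300 bases in that table, 3.65% held GTAAACA, 13.6% TATAAA, 37.4% CCAAT and 0.475% CAAAGTCCA on either strand. Among the 9 genes GTAAACA was found for Sepp1 alone, TATAAA for Sepp1 and Selenbp1, CCAAT for Ccdc152, Gpx3, Gpx4 and Selenbp1, and CAAAGTCCA for none. CTTTGAT, a motif of the TCF factors of Wnt signalling, was in none of the 14 windows and in 3.73% of all windows. The metal response element TGCNCNC was in a window of Sepp1, Gpx4, Sepw1, Txnrd2 and Selenbp1 and in 51.0% of all windows, and the antioxidant response element TGACNNNGC in none of the 14 and in 12.4% of all. These matches describe letters and show no binding.

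Over all 33022 transcripts the ENRI libraries held 29128101 and 15787828 reads in batches 1 and 2, and the WENRC libraries 25839484 and 9245915. Levels are in RPKM, reads per kilobase of gene scaled to library size, and differences are ENRI minus WENRC means of log2(RPKM + 0.5) with the standard error (SE) of the limma fit. Over the 11602 genes tested the median difference was -0.21, and it was -0.06 after median centring, -0.04 after quantile normalization and -0.02 with TMM scaling, so a difference near -0.2 is that of the middle gene. Among 15 enterocyte markers the summed level was 603 and 886 RPKM in ENRI against 56.7 and 27.9 RPKM in WENRC, and among 10 stem cell markers it was 13.9 and 5.98 RPKM in ENRI against 35.8 and 48.9 RPKM in WENRC. All 14 tested enterocyte markers had a positive difference and all 10 stem cell markers a negative one, where 34.3% of all tested genes were positive. Mme, one of the 14, passed the filter through the ENRI libraries alone. None of these passed limma's adjusted p of 0.05, with 12 enterocyte and 8 stem cell markers under an unadjusted p of 0.05, as were 39.0% of all tested genes. Without a replicate block, edgeR called 11 enterocyte markers higher and 3 stem cell markers lower, and DESeq2 called 14 and 8. Of all tested genes edgeR called 5.6% higher and 2.84% lower, and DESeq2 14.7% higher and 8.89% lower. Goblet cell markers summed to 45.1 and 29.0 RPKM in ENRI and 8.40 and 5.57 RPKM in WENRC. Limma called 2 of the 6 tested, Muc2 and Zg16, higher, and 0 with the replicate block. Zg16 had 21.6 and 12.9 RPKM in ENRI and 0.170 and 0.0593 RPKM in WENRC. Clca1 of the same list ran the other way, at 0.186 and 0.133 RPKM in ENRI and 0.630 and 0.757 RPKM in WENRC, and was called lower by edgeR and DESeq2. Muc2 and Zg16 passed the filter through the ENRI libraries alone, and Clca1 through the WENRC libraries alone. Hepatocyte markers, of a cell type that makes much selenoprotein P, summed to 0.239 and 1.22 RPKM in ENRI and 0.450 and 1.19 RPKM in WENRC, with 6 of 7 genes under 0.5 RPKM in every library. Endothelial markers stayed under 0.5 RPKM in all 4 of 4 genes. Macrophage and immune markers summed to 10.2 and 6.87 RPKM in ENRI and 17.2 and 19.6 RPKM in WENRC, mostly Cd68, with 7 of 9 genes under 0.5 RPKM in every library and C1qb at 0. These are bulk libraries, so more cells of a type and more transcription per cell cannot be told apart.

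Sepp1 (NM_001042613, chromosome 15, 3220767 to 3230508, plus strand, positions of these and the following genes as in the deposited mm9 table) was the gene with the largest difference of the 9. Its level was 15.8 and 18.3 RPKM in the ENRI libraries of batches 1 and 2, from 4486 and 2807 reads. In the WENRC libraries it was 1.75 and 1.18 RPKM, from 441 and 106 reads. Both ENRI libraries lay far above both WENRC libraries. The means were 17.0 ± 1.73 RPKM in ENRI and 1.46 ± 0.407 RPKM in WENRC (SD, n = 2 each), a ratio of 11.6. On the log2 scale Sepp1 was higher in ENRI by 3.17 ± 0.24 (SE), and by 2.86 in batch 1 and 3.48 in batch 2. In whole reads the ENRI to WENRC ratio of library-scaled levels was 9.02 in batch 1 (95% exact interval 8.18 to 9.97) and 15.5 in batch 2 (12.8 to 19.0). These intervals cover counting error within 1 library of each medium and not the spread between libraries. Amplified reads without molecular identifiers are not independent molecules, so the intervals may be too narrow even for counting error.

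Sepp1 ranked 31 of 11602 genes by difference. The enterocyte markers above moved the same way, with a median difference of 2.99, and their part in the Sepp1 difference was not tested. The authors' deposited table gives log2 fold changes of 3.80, 3.81 and 3.89 for its 3 transcripts, which share their end and start within 210 bp. The 210 bp between the first and the last start, 2.16% of the gene's length, held 17 and 109 reads in ENRI and 13 and 14 reads in WENRC. As a share of the gene's reads that was 0.379% and 3.88% in ENRI and 2.95% and 13.2% in WENRC. The share was thus higher in WENRC in both batches and higher in batch 2 in both media, on few reads. Over the rest of the gene the level was 16.1 and 17.9 RPKM in ENRI and 1.74 and 1.04 RPKM in WENRC.

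**Figure D1:**
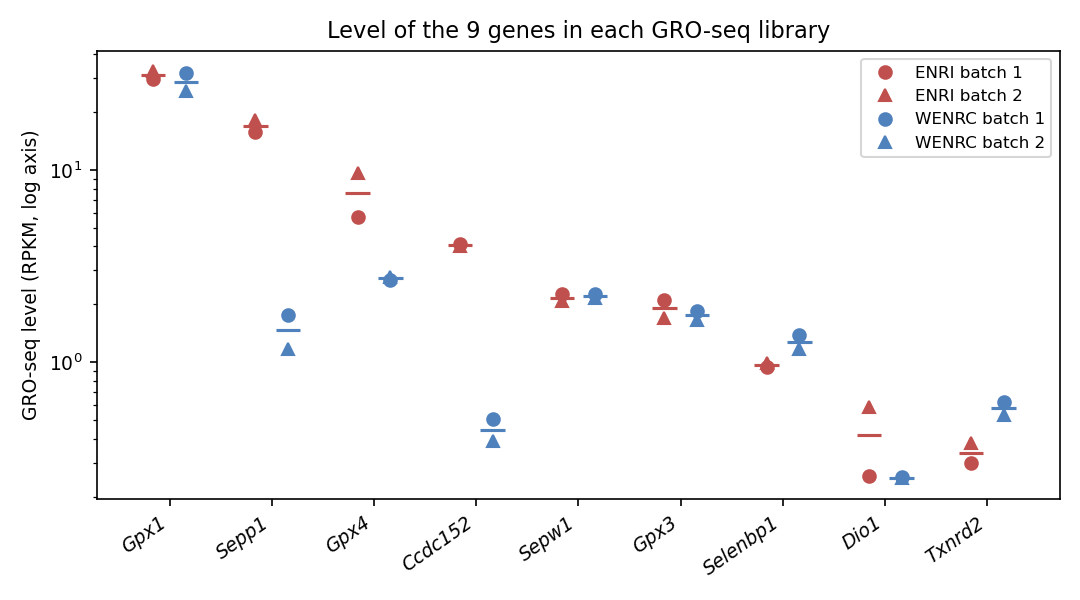
GRO-seq level (RPKM, log axis) of the 9 genes in each library, ordered by the ENRI mean; red is ENRI and blue WENRC, circles are batch 1, triangles batch 2, and short lines the mean of 2 libraries. Among the genes past the filter, Sepp1, Ccdc152 and Gpx4 have both ENRI points above both WENRC points. Their means run from 17.0 against 1.46 RPKM for Sepp1 to 7.63 against 2.73 RPKM for Gpx4. Dio1, below the filter, does so narrowly, at 0.256 and 0.582 RPKM in ENRI against 0.254 and 0.248 RPKM in WENRC.

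Ccdc152 (NM_001166063, chromosome 15, 3230627 to 3253526, minus strand) encodes a coiled-coil protein without selenocysteine. Its annotated end lies 119 bp from the end of Sepp1, so the 2 genes point at each other tail to tail. Its level was 4.14 and 4.02 RPKM in the ENRI libraries, from 2761 and 1452 reads, and 0.504 and 0.387 RPKM in the WENRC libraries, from 298 and 82 reads. Both ENRI libraries were above both WENRC libraries, and the ENRI libraries were close to each other. The means were 4.08 ± 0.0870 RPKM in ENRI and 0.445 ± 0.0823 RPKM in WENRC (SD, n = 2 each), a ratio of 9.15. On the log2 scale the difference was 2.28 ± 0.13 (SE), with 2.21 in batch 1 and 2.35 in batch 2, and it ranked 106 of 11602. The WENRC mean is below the 0.5 RPKM pseudocount, which shrinks this difference, and the authors' deposited table gives a log2 fold change of 3.44. The ratio from whole reads was 8.22 in batch 1 (95% exact interval 7.29 to 9.29) and 10.4 in batch 2 (8.30 to 13.1).

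Ccdc152 was also set beside Sepp1 within each library, as a share of its neighbour's level per length. The Ccdc152 to Sepp1 RPKM ratio was 0.262 (95% exact interval 0.250 to 0.275) and 0.220 (0.206 to 0.235) in ENRI. In WENRC it was 0.287 (0.247 to 0.334) and 0.329 (0.244 to 0.443). The interval of ENRI batch 2 lies below those of the other 3 libraries, while the interval of ENRI batch 1 overlaps both WENRC intervals. The ENRI intervals thus do not overlap each other. Such intervals cover counting error within a library and not the spread between libraries, so no difference between media is read from them. At the next gene along the chromosome the media differed by less than the spread between libraries: Ghr, the growth hormone receptor gene, lies 14229 bp beyond Ccdc152 and averaged 0.371 ± 0.0241 RPKM in ENRI and 0.354 ± 0.0468 RPKM in WENRC (SD, n = 2 each), a log2 difference of 0.03. Fbxo4, 683056 bp from Sepp1, had a log2 difference of 0.17, and the table lists no symbol on the other side of Sepp1.

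**Figure D2:**
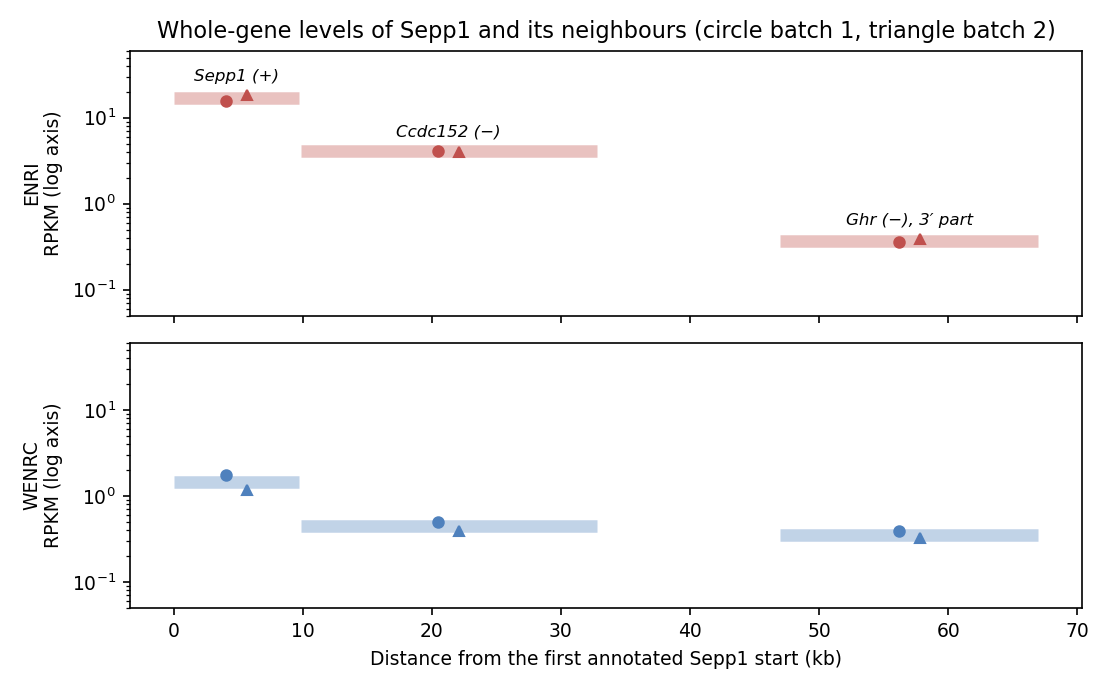
Whole-gene GRO-seq level (RPKM, log axis) of Sepp1, Ccdc152 and Ghr along the chromosome (kb from the first Sepp1 start; Ghr is drawn only in part), ENRI above and WENRC below; each thick line is the mean of 2 libraries over the gene's extent, circles are batch 1 and triangles batch 2. Sepp1 and Ccdc152 are about 10 times higher in ENRI, with ratios of 11.6 and 9.15, and Ghr is at 0.371 against 0.354 RPKM.

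The header of the table does not state whether reads were counted by strand. In 762 pairs, a transcript with at least 10 reads in all lay inside a longer transcript on the opposite strand. The nested transcript had more reads than the one around it in 0 of these pairs. The 95% exact limit on that share is 0.483%, which takes the pairs as independent, although a transcript can enter several pairs. On the same strand, where a nested transcript cannot exceed its enclosing one if reads are counted alike, the number was 8 of 8853 pairs (0.0904%). The table therefore behaves as counts over both strands, and reads on the Ccdc152 strand and reads on the Sepp1 strand that lie within the Ccdc152 gene cannot be told apart.

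Neighbouring genes in general were compared to place the pair. Over 451 tail-to-tail pairs up to 1000 bp apart, both of them tested, the 2 log2 differences had a Pearson correlation of 0.697 across pairs and the same sign in 82.9%. Over 451 tail-to-tail pairs 20000 to 100000 bp apart the correlation was 0.209 and the same sign was found in 60.3%. Head-to-head pairs up to 1000 bp apart had 0.383 (659 pairs), and same-strand pairs at that distance 0.511 (347 pairs). All pairs share the same 4 libraries, and genes are not independent replicates, so these are descriptions. Since the counts behave as taken over both strands, reads of a gene that lie within its neighbour cannot be told apart here either. Their part in the correlations was not tested. In 6 of the close tail-to-tail pairs the larger difference exceeded 2 in size, and all 6 had the same sign in both genes. In 2 of those 6 the partner also exceeded 1, the pair of Sepp1 and Ccdc152 being one of them.

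**Figure D3:**
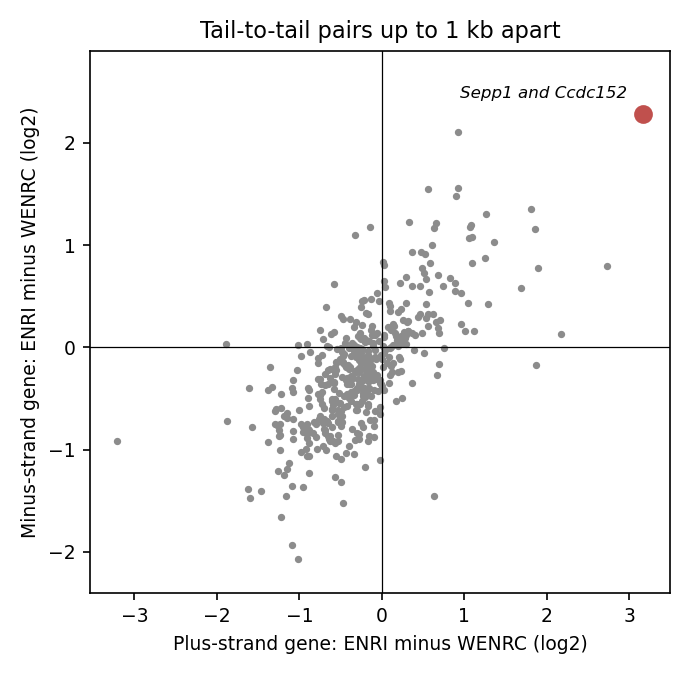
Log2 difference (ENRI minus WENRC) of the plus-strand gene (horizontal axis) and the minus-strand gene (vertical axis) for the 451 tail-to-tail pairs up to 1000 bp apart; each grey point is a pair and the red point is Sepp1 with Ccdc152. The points run along a rising diagonal (Pearson correlation 0.697), and the red point lies at its upper end, at 3.17 and 2.28.

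Other genes were ranked by their closeness to Sepp1 or Ccdc152 over the 4 libraries. The measure was the Euclidean distance between log2(RPKM + 0.5) values centred on each gene's own mean, among 10386 protein-coding genes. Nearest to Sepp1 were Cyp2d34 (distance 0.231) and Cyp3a13 (0.342), both cytochromes P450, Slc13a1 (0.351), a sodium-sulfate cotransporter, Chp2 (0.434), a calcineurin B homologous protein, and Mme (0.474), the peptidase neprilysin and one of the enterocyte markers used here. Cyp3a13 had 18.6 and 22.7 RPKM in ENRI and 2.52 and 2.19 RPKM in WENRC. Nearest to Ccdc152 were Gsdmd (0.0984), the pore-forming gasdermin D, 2210407C18Rik (0.184), the goblet cell mucin Muc2 (0.238), the chemokine Ccl20 (0.259) and the antimicrobial lectin Reg3g (0.339). Gsdmd had 12.5 and 11.1 RPKM in ENRI and 2.21 and 1.79 RPKM in WENRC. Ccdc152 itself was at rank 49 for Sepp1 and Sepp1 at rank 166 for Ccdc152, both at a distance of 0.924. With 4 libraries in 2 media, such distances reflect the size of a gene's difference as well as its pattern. They also depend on the 0.5 RPKM pseudocount, since Ccdc152 lay near it in WENRC, at 0.504 and 0.387 RPKM. Muc2 lay below it there, at 0.147 and 0.106 RPKM, as did Cyp2d34, at 0.298 and 0.109 RPKM. So did Slc13a1 (0.224 and 0.0989 RPKM), Mme (0.164 and 0.0735 RPKM) and Reg3g (0.149 and 0.208 RPKM). These genes passed the filter through the ENRI libraries alone. The ranking uses the difference on which Sepp1 and Ccdc152 were chosen, so it is a description. The order under other pseudocounts was not tested.

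Gpx4 encodes the glutathione peroxidase that reduces lipid hydroperoxides in membranes and protects cells from ferroptosis. Its longest row in the table is a non-coding transcript (NR_110342, chromosome 10, 79509911 to 79519184, plus strand), with 5.66 and 9.59 RPKM in ENRI and 2.68 and 2.78 RPKM in WENRC. Both ENRI libraries were above both WENRC libraries, but the ENRI libraries also stood apart from each other. The means were 7.63 ± 2.78 RPKM in ENRI and 2.73 ± 0.0712 RPKM in WENRC (SD, n = 2 each), a ratio of 2.80. The log2 difference was 1.29 ± 0.29 (SE), with 0.96 in batch 1 and 1.62 in batch 2, and it ranked 421 of 11602. The coding transcripts were read more densely: NM_008162 had 14.2 and 22.1 RPKM in ENRI and 7.34 and 7.55 RPKM in WENRC, and NM_001037741 had 15.0 and 22.8 RPKM in ENRI and 6.88 and 7.37 RPKM in WENRC. Their log2 differences were 1.20 and 1.32. The 6322 bp upstream of the coding transcripts, 68.2% of the longest row, held 19.9% and 26.6% of its reads in ENRI and 12.6% and 13.4% in WENRC, at 1.66 and 3.74 RPKM in ENRI against 0.496 and 0.547 RPKM in WENRC.

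Gpx1, the abundant peroxidase of the cytosol (NM_008160, chromosome 9, 108241411 to 108242673, plus strand), had the highest level of the 9 genes in both media. It had 29.6 and 32.7 RPKM in ENRI and 31.9 and 25.8 RPKM in WENRC. The media overlapped, and the log2 difference of 0.11 ± 0.30 (SE) changed sign between the batches, -0.11 in batch 1 and 0.34 in batch 2. Its sign also turned, to -0.04, without the WENRC library of batch 2. Gpx3, the secreted peroxidase of plasma (NM_008161, chromosome 11, 54716356 to 54723884, plus strand), had 2.10 and 1.71 RPKM in ENRI and 1.85 and 1.67 RPKM in WENRC. Here too the media overlapped, with a log2 difference of 0.09 ± 0.15 (SE) that turned to -0.03 without the ENRI library of batch 1. Tnip1, whose end lies 405 bp from that of Gpx3, had a log2 difference of 0.44.

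Sepw1 (NM_009156, chromosome 7, 16502557 to 16507720, minus strand), now Selenow, encodes a small thioredoxin-like selenoprotein best known from muscle. With 2.25 and 2.09 RPKM in ENRI and 2.26 and 2.16 RPKM in WENRC the media overlapped. Its log2 difference of -0.02 ± 0.14 (SE) became positive with median centring, quantile normalization, TMM scaling, edgeR and DESeq2. Txnrd2, the thioredoxin reductase of mitochondria (NM_013711, chromosome 16, 18426510 to 18479166, plus strand), had 0.297 and 0.379 RPKM in ENRI and 0.619 and 0.534 RPKM in WENRC. Both ENRI libraries were below both WENRC libraries, with a log2 difference of -0.36 ± 0.14 (SE), and -0.49 and -0.23 in batches 1 and 2. Txnrd2 reached the 0.5 RPKM of the filter in the WENRC libraries alone. Dio1, the deiodinase that makes active thyroid hormone (NM_007860, chromosome 4, 106964070 to 106979748, minus strand), had 0.256 and 0.582 RPKM in ENRI and 0.254 and 0.248 RPKM in WENRC. The ENRI library of batch 2 alone stood apart: the ENRI to WENRC ratio was 1.01 in batch 1 (95% exact interval 0.767 to 1.33) and 2.34 in batch 2 (1.62 to 3.48), where the WENRC library had 36 reads.

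Selenbp1 (NM_009150, chromosome 3, 94737005 to 94748680, plus strand) encodes a protein that binds selenium without holding selenocysteine and oxidizes methanethiol. It had 0.941 and 0.987 RPKM in ENRI and 1.39 and 1.18 RPKM in WENRC. Both ENRI libraries were below both WENRC libraries, with a log2 difference of -0.28 ± 0.12 (SE), close to the median of all genes. Reads of its near-identical relative Selenbp2 may be shared with it. Selenbp2 had 1.84 and 0.655 RPKM in ENRI and 1.30 and 1.67 RPKM in WENRC, opposite in sign between batches (0.38 and -0.91).

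**Figure D4:**
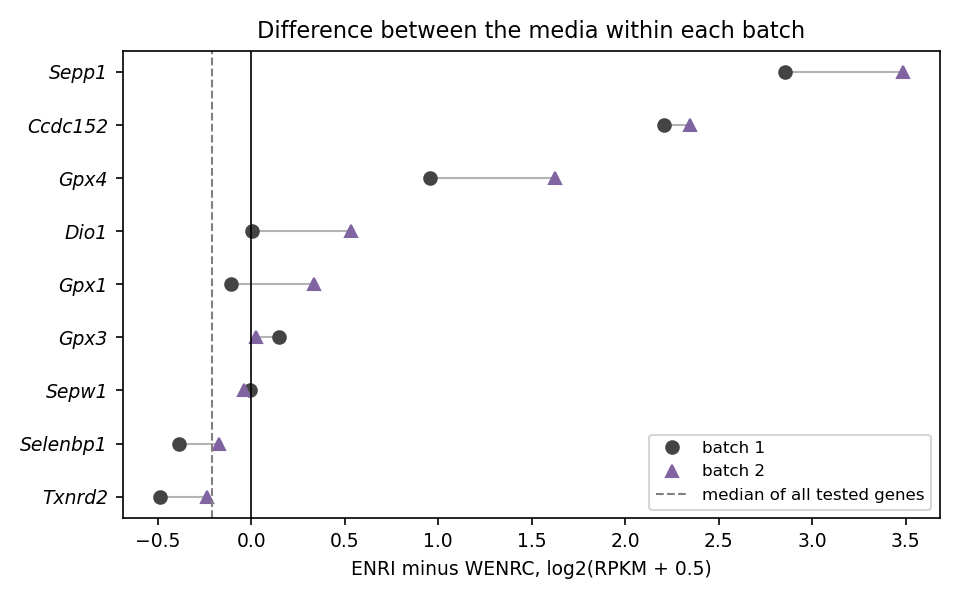
Log2(RPKM + 0.5) difference, ENRI minus WENRC, within batch 1 (circle) and batch 2 (triangle) for the 9 genes; the dashed line is the median of all tested genes, at -0.21. Sepp1, Ccdc152 and Gpx4 lie well to the right in both batches, Dio1 and Gpx1 near 0 in batch 1, and Selenbp1 and Txnrd2 near or left of the dashed line.

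Per length, the order of the 9 genes in ENRI was Gpx1, Sepp1, Gpx4, Ccdc152, Sepw1, Gpx3, Selenbp1, Dio1 and Txnrd2. Neighbours in that order whose libraries overlapped were Sepw1 with Gpx3 and Dio1 with Txnrd2. In WENRC the order was Gpx1, Gpx4, Sepw1, Gpx3, Sepp1, Selenbp1, Txnrd2, Ccdc152 and Dio1, and Gpx3 with Sepp1 and Sepp1 with Selenbp1 overlapped. Sepp1 was thus at rank 2 in ENRI and 5 in WENRC, and Ccdc152 at rank 4 in ENRI and 8 in WENRC.

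Of the 8 genes past the filter, 3 were higher in both ENRI libraries than in both WENRC libraries (Sepp1, Ccdc152 and Gpx4), and 2 were lower in both (Txnrd2 and Selenbp1). The same held for 23.0% of all tested genes in the higher direction and 49.7% in the lower. Txnrd2 passed the filter through the WENRC libraries alone, where it was higher, and Ccdc152 passed it only with its ENRI libraries. Limma with Benjamini-Hochberg adjustment over all genes called 1 of the 8, Ccdc152, higher. Of all tested genes it called 0.147%, with 0.0603% higher and 0.0862% lower. These are 7 higher and 10 lower genes, against 7 and 5 after median centring, 507 and 422 after quantile normalization, and 567 and 227 with TMM scaling. Limma called 0 of the 8 with the replicate block, with a pseudocount of 0.1 RPKM or without the filter. Other settings added calls. Limma called Sepp1 and Ccdc152 higher with a filter of 1 RPKM (42 genes called in all) and with quantile normalization. With TMM scaling it called Sepp1, Ccdc152 and Gpx4 higher. Sepp1, Ccdc152 and Gpx4 were called higher by edgeR without the block (5.6% of all tested genes higher, 2.84% lower), edgeR with it (5.32% higher, 2.72% lower) and DESeq2 (14.7% higher, 8.89% lower). In the authors' deposited table the same 3 of 9 genes were higher at an FDR under 0.05, as were 5.65% of all symbols, with 3.06% lower. Because this contrast chose the genes, nothing is read from these counts.

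The rest of the selenoprotein family lay on both sides of 0. Of 17 further selenoprotein symbols, 12 passed the filter, with 5 positive and 7 negative differences and a median of -0.10. The median of all tested genes was -0.21, with 34.3% positive. With median centring, TMM scaling, edgeR and DESeq2 the split was 7 positive and 5 negative, and with quantile normalization 4 and 8. The share of all tested genes that was positive under these settings was not computed. Limma called 0 of the 12, with 4 under an unadjusted p of 0.05, as were 39.0% of all tested genes. Selk alone was called by edgeR with the replicate block and in the authors' deposited table, edgeR without it called 0, and DESeq2 called Selk and Ept1 higher and Gpx2 lower. Selk, an endoplasmic reticulum selenoprotein, had 3.37 and 5.31 RPKM in ENRI and 1.67 and 2.08 RPKM in WENRC, a log2 difference of 1.00 ± 0.26 (SE) with a limma adjusted p of 0.0758. Ept1, an ethanolamine phosphotransferase of phospholipid synthesis, had 4.42 and 6.99 RPKM in ENRI and 2.88 and 3.63 RPKM in WENRC. Both were above in both ENRI libraries, as was Msrb1, a methionine sulfoxide reductase, at 0.962 and 1.12 RPKM in ENRI and 0.656 and 0.652 RPKM in WENRC.

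In all, 3 of the 12 lay above in both ENRI libraries and 6 lay below in both (Gpx2, Selm, Vimp, Selt, 2700094K13Rik and Sep15), beside 23.0% and 49.7% of all tested genes. The one with the highest level of those 6 in WENRC was Gpx2, the glutathione peroxidase of the gastrointestinal epithelium, at 7.44 and 3.70 RPKM in ENRI against 13.1 and 14.3 RPKM in WENRC. Its log2 difference was -1.30 ± 0.38 (SE), with a limma adjusted p of 0.0872. Gpx2 and Gpx4 thus lay on opposite sides of 0 among the peroxidases, while Gpx1 and Gpx3 overlapped between media. Selm had 1.71 and 0.239 RPKM in ENRI and 2.38 and 2.57 RPKM in WENRC, with most of the gap in batch 2. Sephs2, the selenophosphate synthetase that is itself a selenoprotein, overlapped between media at 13.4 and 14.3 RPKM in ENRI and 13.4 and 15.4 RPKM in WENRC. Txnrd1, the thioredoxin reductase of the cytosol, overlapped too, at 3.38 and 3.98 RPKM in ENRI and 3.41 and 3.84 RPKM in WENRC. Dio3 had no read in any library, and Dio2, Txnrd3, Sepn1 and BC089491 were also below the filter.

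The list named here for selenocysteine synthesis and insertion mostly had negative differences, as did most tested genes. It also holds Scly, the selenocysteine lyase, with a difference of -0.26. All 10 passed the filter, with 9 negative differences and a median of -0.36, against -0.21 for all tested genes, and with 7 negative of 10 after median centring and quantile normalization and in edgeR and DESeq2, and 6 of the 9 tested with TMM scaling. Of all tested genes 34.3% had a positive difference before rescaling, and the share after rescaling was not computed. With median centring the median of the list was -0.22, against -0.06 for all tested genes. With quantile normalization these medians were -0.16 and -0.04, and with TMM scaling -0.13 and -0.02. Limma called 0 of 10, with 7 under an unadjusted p of 0.05, as were 39.0% of all tested genes. The authors' deposited table called Trnau1ap and Sars lower, edgeR without a replicate block and DESeq2 called these and Secisbp2l (higher), and edgeR with the block called 0. Of all tested genes, edgeR without the block called 5.6% higher and 2.84% lower, and DESeq2 14.7% and 8.89%. The authors' table called 5.65% of all symbols higher and 3.06% lower. Sars, the seryl-tRNA synthetase that charges the selenocysteine tRNA with serine as well as serine tRNAs, had 1.63 and 1.84 RPKM in ENRI and 4.32 and 4.46 RPKM in WENRC, a log2 difference of -1.13 ± 0.15 (SE). Trnau1ap, a protein associated with the selenocysteine tRNA, had 1.01 and 0.802 RPKM in ENRI and 2.26 and 2.84 RPKM in WENRC, a difference of -1.12 ± 0.17 (SE). Secisbp2l, a relative of the protein that binds the selenocysteine stem-loop, was the only positive one in the limma fit before rescaling, at 1.60 and 1.26 RPKM in ENRI and 0.901 and 0.773 RPKM in WENRC. The elongation factor gene Eefsec had a difference of -0.41 ± 0.13 (SE), and passed the filter through the WENRC libraries alone.

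**Figure D5:**
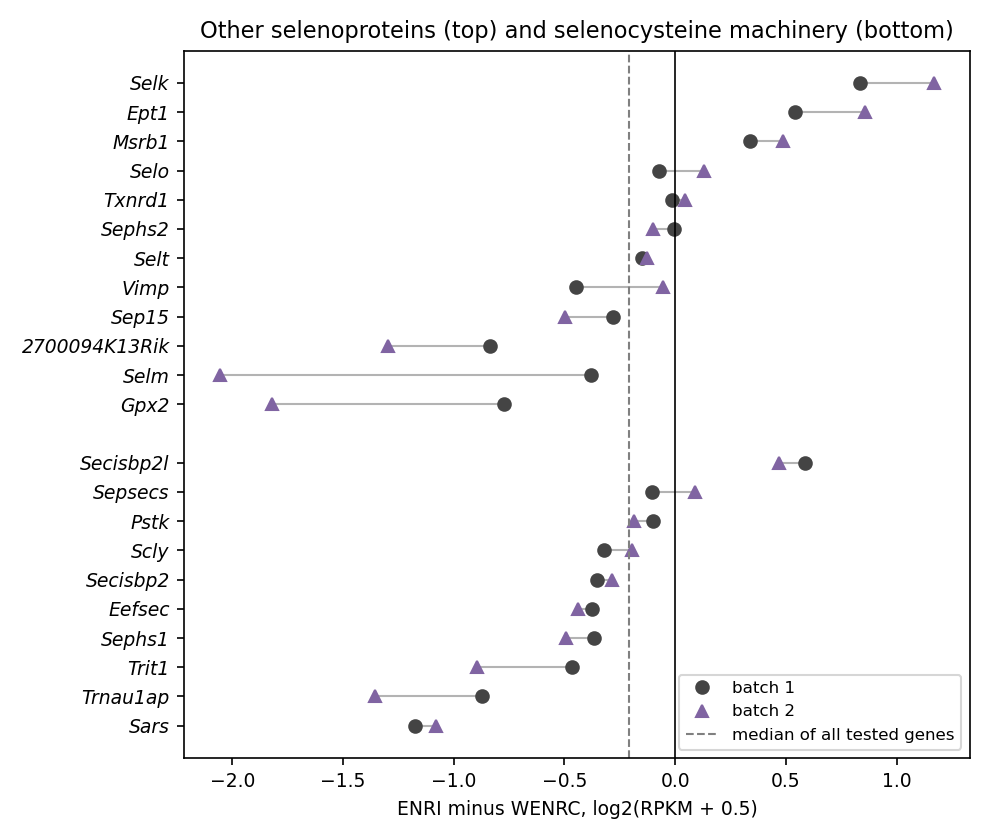
Log2(RPKM + 0.5) difference, ENRI minus WENRC, within batch 1 (circle) and batch 2 (triangle), for 12 further selenoproteins (upper block) and 10 genes of selenocysteine synthesis and insertion (lower block); the dashed line is the median of all tested genes, at -0.21. Selk, Ept1 and Msrb1 lie right of 0 in both batches, Gpx2, Selm and 2700094K13Rik left of it, and Sars and Trnau1ap are the lowest of the lower block.

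Of the receptors known to take up selenoprotein P, Lrp8 had 0.330 and 0.254 RPKM in ENRI and 1.26 and 1.17 RPKM in WENRC, a log2 difference of -1.12 ± 0.13 (SE). It was called lower by edgeR, DESeq2 and the authors' deposited table, and not by limma in the main fit (adjusted p of 0.0560). Limma did call Lrp8 lower after quantile normalization and with TMM scaling. Lrp1 had 0.670 and 1.61 RPKM in ENRI and 0.415 and 0.322 RPKM in WENRC, with batch 2 holding most of the gap. Lrp1 was called higher by DESeq2 and in the authors' deposited table, and neither by edgeR nor by limma on all 4 libraries. Lrp2 was below the filter, which Lrp8 passed through the WENRC libraries alone and Lrp1 through the ENRI libraries alone.

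H3K27me3, the mark laid down by polycomb repressive complex 2, was looked for within 2 kb of each gene's start in the authors' regions, which were called in each library separately against input. In the broad lists 1 of the 9 genes carried it in ENRI, Gpx3, and 0 of 9 in WENRC, where 8.76% and 10.5% of all 24016 symbols did. The Gpx3 region in ENRI ran from 54715381 to 54716958 on chromosome 11, across the start, with a fold of 4.55 over input as the authors give it. In the narrow lists Gpx3 was marked in both media, from 54715732 to 54716913 in ENRI (fold 6.48) and from 54716244 to 54716932 in WENRC (fold 5.06), where 19.6% and 17.8% of all symbols were marked, so the broad lists' difference did not hold there. Sepw1 had a narrow region in WENRC only, 1970 bp from its start. Sepp1 and Ccdc152 had no region of either kind near their starts in either medium. The nearest broad region to Sepp1 lay 3115.4 kb away in ENRI and 1104.6 kb away in WENRC. A single narrow region inside the Ccdc152 gene was listed in WENRC, from 3236880 to 3237380 on chromosome 15 with a fold of 5.23. Among the 17 further selenoproteins Dio3 and BC089491 were marked in both media in the broad lists, and among the 10 genes of selenocysteine synthesis and insertion 0 were.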

How the data were processed

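Levels came from GRO-seq of 2 ENRI and 2 WENRC libraries, grouped by sample title. The authors counted reads over mm9 RefSeq gene bodies with HOMER, per the file headers. FastQC, Bowtie, Bowtie2, HOMER 4.3 and edgeR are named in the submitters' processing notes. The deposited signal columns are scaled reads, each summing to 20.0M. Division by the value of 1 read in each library gave whole numbers for 100% of values (tolerance 0.1), and these recovered reads are used below. RPKM was computed from the scaled reads and their column totals. A further 4 value columns, the deposited RPKM, were not used here. The deposited log2 fold changes, p-values and FDR are the authors' edgeR comparison with batch as a term, positive where ENRI is higher. H3K27me3 regions, with their score and fold (ratio) over input, were deposited per library, per the file headers with HOMER. The input and H3 libraries enter only through those calls or not at all.

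One transcript per symbol (the longest) was tested with limma 3.58.1 in R 4.3.3 (trend, no block) on log2(RPKM + 0.5), where 2 or more libraries reached 0.5 RPKM, with Benjamini-Hochberg adjustment over 11602 genes and a threshold of 0.05. The script was tested on simulated reads. On the recovered reads edgeR 4.0.16 (quasi-likelihood) called 979 genes and DESeq2 1.42.0 called 2738. Alternatives covered the pseudocount, filter, scaling, transcript, block, test and each library left out. The batch numbers in the header pair the libraries across media, although same-batch deviations from the group means had a correlation of only 0.0126 over 11602 genes, so the block was kept as an alternative. Members and gene lists were chosen with earlier results of these data known. Named were all 9 members, and from the other lists the genes past the test and up to 4 with the largest differences; any gene of the selenoprotein and selenocysteine lists could be named, and the 5 genes nearest in pattern to Sepp1 and to Ccdc152. Exact binomial intervals (95%) were used for ratios of reads. Aligner settings and the strand setting are not given in the sources used here.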

Additional observations from a re-analysis of the deposited data

How the results depend on the processing

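Over all genes limma called 17. It called 1 with a pseudocount of 0.1 RPKM, 0 without a filter (5201 under an unadjusted p of 0.05), 42 with a filter of 1 RPKM, 929 after quantile normalization and 794 with TMM scaling. edgeR without the block called 979 and DESeq2 2738. With the replicate block, limma called 0 (3839 under an unadjusted p of 0.05) and edgeR 932. Leaving out 1 library gave 0 to 5794 calls, 5794 without the ENRI library of batch 1, 685 without that of batch 2 and 0 without either WENRC library. The cause was not tested. Further selenoproteins called were 1 with TMM scaling, 1 in edgeR with the block and 3 in DESeq2 (0 to 7 with 1 library left out). Genes of selenocysteine synthesis and insertion called were 3 after quantile normalization, 1 with TMM scaling, 3 in edgeR without the block and 3 in DESeq2 (0 to 5 with 1 library left out, the 5 without the ENRI library of batch 1).

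The Sepp1 difference was positive in all 16 alternatives (2.88 to 3.81), with 3.78 in edgeR, 3.80 in edgeR with the block and 3.81 in DESeq2, and 2.96 to 3.38 with 1 library left out. That of Ccdc152 was positive in all 16, with 2.95 and 1.81 for pseudocounts of 0.1 and 1 RPKM, 2.43 with median centring, 2.45 with quantile normalization, 2.44 with TMM scaling, 3.43 in edgeR, 3.45 with the block and 3.46 in DESeq2, and 2.19 to 2.37 with 1 library left out. The pseudocount lowers the limma values by construction. Gpx4 stayed positive (0.93 to 1.78), and Txnrd2 and Selenbp1 negative (-0.63 to -0.13 and -0.37 to -0.10). Promoters with H3K27me3 came to 0 in ENRI at a fold of at least 6 and to 2 in WENRC in the narrow lists. Among the 9 genes, Dio1 and Ccdc152 had the fewest reads, 36 and 82 in the WENRC library of batch 2, and Selm, outside them, had 10 in the ENRI library of batch 2.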
